A study of Mus musculus with 12 samples.

Results

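CD4 T cells and CD8 T cells of Peyer's patches, the lymphoid follicles of the small intestinal wall, were compared across the whole array. The comparison used every array titled for the CD4 or the CD8 fraction, 6 of the 12 arrays of the series, with 3 arrays in each fraction. CD4 cells had been sorted as γδTCR- TCRβ+ CD4+ cells, and CD8 cells as γδTCR- TCRβ+ CD4- CD8β+ cells. CD8α was not part of the stain, and the series also holds TCRβ+ cells without either coreceptor (DN) and γδ T cells. All cells came from C57BL/6 mice of both sexes aged 10 weeks, without treatment, and each pool held 3 to 5 mice. The submitters gave a purity above 98% for each sorted fraction and 3 rounds of RNA collection, but the labels do not tie an array to a round, so p-values measure the spread between arrays, which may be partly technical.

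Mature T cells with an αβ receptor follow 1 of 2 main lineages. Cells with the CD4 coreceptor read peptides on MHC class II and help other cells through cytokines and surface ligands; in Peyer's patches they include follicular helper cells, which support B cells in germinal centres, and regulatory cells, which restrain responses. Cells with the CD8 coreceptor, a pair of CD8α and CD8β chains, read peptides on MHC class I and can kill target cells with granule proteases. In the thymus the factor encoded by Zbtb7b directs cells to the helper lineage, and Runx3 directs them to the cytotoxic lineage.

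Signal is given as log2 of the background-corrected, quantile-normalised spot intensity, and a difference is the mean of the CD4 libraries minus the mean of the CD8 libraries on that scale. The correction adds an offset, so differences and folds that involve a signal near the floor of the scale are understated. The median spot of the 6 arrays lay at an intensity of 72.5 to 77.3, the mean of the blank spots at 58.6 to 62.2, and 19502 to 21394 of the 23473 probes were detected. The median spot thus lay little above the blank spots, and each fraction had 3 arrays. What limited the precision was not tested. The replicates were uneven. CD4 2 and 3 correlated at r = 0.997 over the 19643 probes tested, as did CD8 2 and 3, while CD4 1 correlated with CD4 2 and 3 at 0.965 and 0.966. Over all 23448 probes kept, the library labelled CD8 1 correlated with CD8 2 and 3 at 0.936 and 0.934, and with CD4 2 and 3 at 0.934 and 0.936. It correlated at 0.969 with both DN 2 and DN 3, and at 0.964 and 0.965 with γδ 2 and 3. With the other libraries of replicate 1 the values were 0.991 for DN 1, 0.97 for γδ 1 and 0.966 for CD4 1. Replicate 1 of each fraction was run on another array series, named by a letter in the array's identifier, than replicates 2 and 3.

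The genes of the sorting markers served as a check of the labels. Cd8b1, which encodes CD8β, read 8.26, 7.93 and 7.80 in CD4 1, 2 and 3, against 8.57 in the library labelled CD8 1 and 13.80 and 13.62 in CD8 2 and 3. The library labelled CD8 1 thus lay by the CD4 libraries and went against its label, while the γδ 1 library read 13.91, beside 8.14 to 8.29 in γδ 2 and 3 and 6.26 to 6.29 in DN. The mean difference of Cd8b1 was -4.00 as labelled and -5.72 without the library labelled CD8 1, and since that library was set aside for this gene, the second value is a description only. Whether the libraries labelled CD8 1 and γδ 1 hold the cells their labels name is not settled by the labels, so each value as labelled is that of the libraries as titled. Cd4 read 8.76, 9.97 and 9.72 in CD4 1, 2 and 3, against 6.03 in the library labelled CD8 1 and 6.11 and 6.15 in CD8 2 and 3. All CD4 libraries lay above all CD8 libraries, by a mean of 3.39 ± 0.33 (SE).

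**Figure D1:**
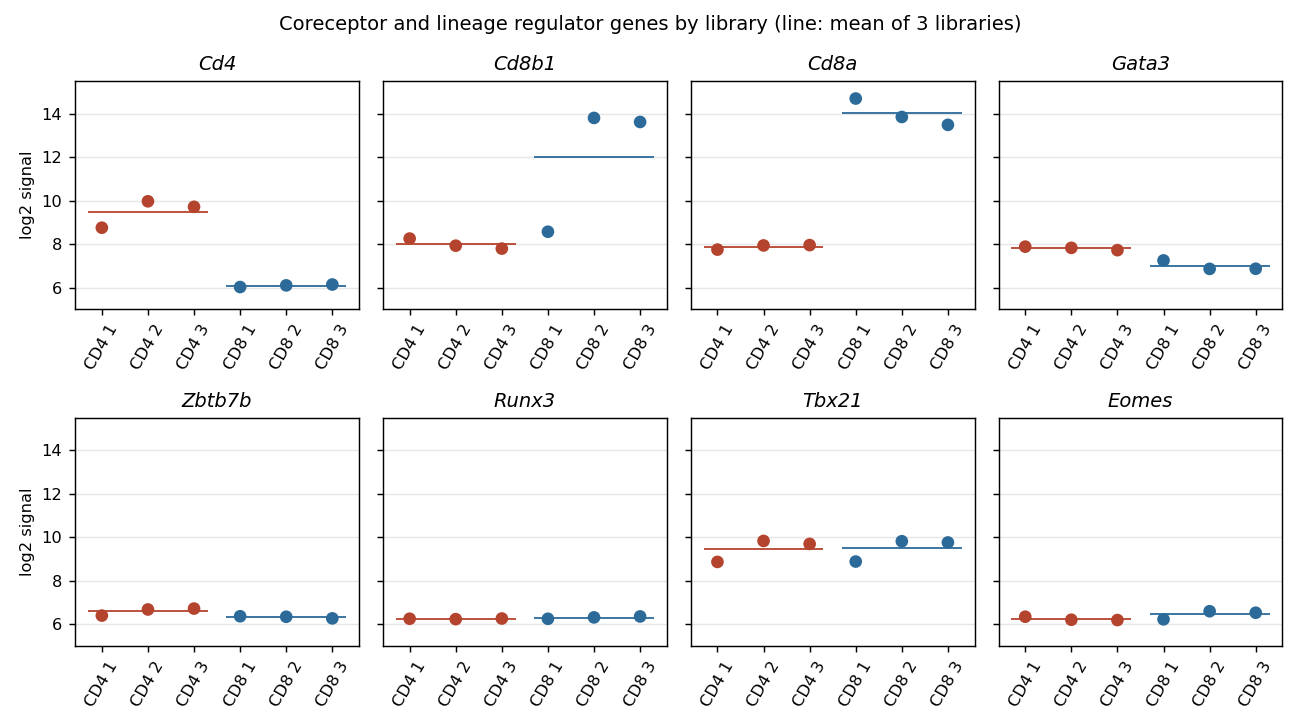
Log2 signal (y axis) of 8 coreceptor and regulator genes in the 3 CD4 libraries (red, left) and the 3 CD8 libraries (blue, right), with a line at the mean of each group. Cd8b1 in the library labelled CD8 1 sits at 8.57, near the CD4 libraries, whereas Cd8a there is 14.70.

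Other markers also set that library apart. The summed deposited intensity of 8 genes of natural killer and innate-like lymphocytes ranged from 226 to 245 in CD4, and reached 11890 in the library labelled CD8 1 against 173 and 197 in CD8 2 and 3. Fcer1g, a signalling chain of innate receptors, read 6.51, 6.33 and 6.33 in CD4, against 12.99 in the library labelled CD8 1 and 6.62 and 6.71 in CD8 2 and 3. The sum over 14 B cell markers was 558 to 1231 in CD4, 8386 in the library labelled CD8 1, and 732 and 839 in CD8 2 and 3. The sum over 13 genes of MHC class II presentation was 2035 to 2436 in CD4, 19990 in the library labelled CD8 1, and 1688 and 1686 in CD8 2 and 3. For 10 markers of γδ T cells it was 585 to 840 in CD4, 10600 in the library labelled CD8 1, and 944 and 981 in CD8 2 and 3. Gzma, a member of that list, is also a granule gene. Cd163l1, another member, had a difference of -0.80 as labelled and -0.11 between CD4 2 and 3 and CD8 2 and 3. It read 8.48 to 8.57 in γδ 2 and 3, 6.11 in γδ 1 and 6.02 to 6.17 in DN. The CD4 libraries, CD8 2 and CD8 3 did not reach such levels for any of these lists, and the comparison is given as labelled and again without the library labelled CD8 1. The part these markers play in the results as labelled was not tested.

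**Figure D2:**
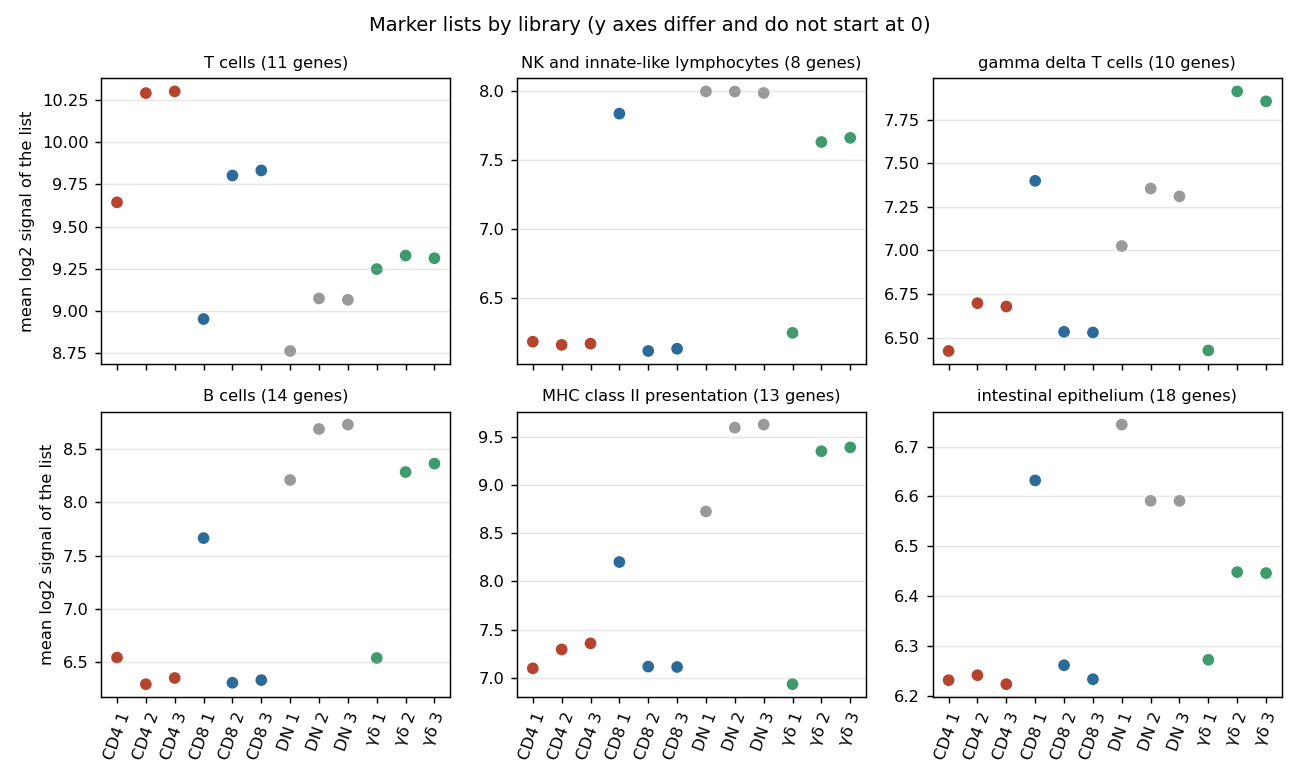
Mean log2 signal (y axis) of 6 marker lists in CD4 (red), CD8 (blue), DN (grey) and γδ (green) libraries. The library labelled CD8 1 stands above CD8 2 and 3 in the panels of innate lymphocytes, γδ T cells, B cells, MHC class II and epithelium, and below them in that of T cells.

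As labelled, 39 genes were higher and 11 lower in CD4 than in CD8 cells at an adjusted p under 0.05 (limma with Benjamini-Hochberg adjustment over all 19643 probes tested, of which 55, or 0.28%, were called). These were 0.238% and 0.0671% of the 16397 genes tested, where a gene is the brightest probe of its symbol. Without the library labelled CD8 1, 207 genes were higher and 203 lower, or 1.25% and 1.23% of 16547 genes, and 466 of 19834 probes (2.35%) were called. The 50 genes called as labelled were all among these 410, of which they made up 12.2%. In 154 of the 410 genes the library labelled CD8 1 lay nearer to CD8 2 and 3, and in 256 it lay nearer to the CD4 mean. In 237 of the 410 (57.8%) the CD4 libraries and all 3 CD8 libraries did not overlap. The share over all genes tested is not given here, so 57.8% cannot be set against a background. The 410 genes were chosen with the library labelled CD8 1 left out, so its position in them is a description and not a test. The median difference over all genes tested was -0.00246 as labelled and -0.00245 without that library.

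These calls depended on the arrays used. With the replicate number as a block, only Icos and Prdx4 were called as labelled (both adjusted p = 0.0448), which is 0.0122% of genes and higher in CD4 for both, and the 26 named genes called as labelled had adjusted p of 0.0539 to 0.116. Without the library labelled CD8 1, the block raised the calls to 1162 higher and 931 lower, 7.02% and 5.63% of genes, and the 58 named genes called in that comparison all stayed called. CD4 1 is then the only library of replicate 1, so the block absorbs it and it has no weight in the difference. The differences of that fit are those of CD4 2 and 3 against CD8 2 and 3, so it is not a separate result from replicates 2 and 3 alone. Within the array series that holds replicates 2 and 3 of both fractions, 1601 genes were higher and 1274 lower in CD4, or 9.65% and 7.68% of 16589 genes. The series of replicate 1 has 1 array per fraction and gives no test. Calls among the gene lists below are to be read beside the share of all genes called in the same fit. As labelled, where 55 probes were called on all 6 arrays, refits called 100 probes in all without CD4 1, 7 without CD4 2, 3 without CD4 3, 5 without CD8 3 and 0 without CD8 2, where 947 probes had an unadjusted p under 0.05. Without the library labelled CD8 1, where 466 were called on 5 arrays, refits called 3292 probes in all without CD4 1, 66 without CD4 2, 28 without CD4 3, and 0 without CD8 2 or without CD8 3, where 1972 and 1673 had an unadjusted p under 0.05. On the deposited value table, that comparison gave 208 probes higher and 59 lower in CD4, against 226 and 240 on the quantile-normalised signal.

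Cd8a, which encodes the CD8α chain, had the largest difference of all. CD8α was not stained, but its partner chain CD8β was sorted on, so this difference is not independent of the sort. Cd8a read 7.75, 7.94 and 7.96 in CD4 1, 2 and 3, against 14.70 in the library labelled CD8 1 and 13.85 and 13.49 in CD8 2 and 3. The groups did not overlap, and CD4 was lower by 69.8-fold as labelled (difference -6.13 ± 0.32 SE, adjusted p = 0.00826). Without the library labelled CD8 1 the difference was -5.78 ± 0.14 (adjusted p = 0.00279). A second, dimmer Cd8a probe moved the same way (difference -1.15 as labelled, adjusted p = 0.00692). Cd8a was as bright in DN libraries, at 14.2 to 14.4, and in γδ 2 and 3, at 13.5 to 13.8, so a high Cd8a level was shared by every fraction other than CD4.

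On this scale the lineage regulators differed far less than the coreceptors. Zbtb7b and Runx3 were dim in both fractions, where differences are understated, so their small differences do not show that the fractions hold equal levels. Gata3, a factor of helper T cells, read 7.89, 7.83 and 7.73 in CD4, against 7.25 in the library labelled CD8 1 and 6.87 in both CD8 2 and CD8 3. No CD4 value overlapped a CD8 value; the difference was 0.82 ± 0.12 as labelled (adjusted p = 0.127) and 0.95 ± 0.06 without the library labelled CD8 1 (adjusted p = 0.0113). Zbtb7b read 6.41, 6.69 and 6.73 in CD4, against 6.37 in the library labelled CD8 1 and 6.35 and 6.28 in CD8 2 and 3, and did not pass the test in either comparison (adjusted p = 0.613 and 0.353). With the replicate block added to the second comparison its difference was 0.39 ± 0.05 and passed (adjusted p = 0.0351). Runx3 read 6.24 to 6.27 in CD4 and 6.26 to 6.37 in CD8, with adjusted p of 1 and 0.297, and its CD4 and CD8 ranges overlapped. Of the 18 coreceptor and regulator genes tested, Cd4 rose and Cd8a fell as labelled, and without the library labelled CD8 1 Gata3 rose as well. Cd8b1, for which that library was set aside, is not counted as a test there. Cd4 and Cd8b1 are also genes of the sorting markers, and Cd8a encodes the partner chain of CD8β. Their differences are therefore not independent of the sort.

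Genes of follicular helper cells had higher signal in CD4, although in bulk RNA a larger number of such cells and more RNA per cell cannot be told apart. As labelled, all 20 members tested had a positive difference, with a median of 1.20, and 3 rose; without the library labelled CD8 1 the median was 1.16 and 6 rose. With the replicate number as a block, 1 member rose as labelled and 17 without the library labelled CD8 1, and within the array series of replicates 2 and 3 19 of 20 rose. Of all genes tested, 0.238% rose as labelled and 1.25% without that library. With the block these shares were 0.0122% and 7.02%, and within that array series 9.65% rose. Cxcr5, the receptor that brings helper cells into B cell follicles, read 10.67, 11.13 and 11.07 in CD4, against 8.31 in the library labelled CD8 1 and 6.99 and 6.86 in CD8 2 and 3. The library labelled CD8 1 lay between the other 2 CD8 libraries and the CD4 libraries, without overlap. The difference was 3.57 ± 0.43 as labelled (adjusted p = 0.0852) and 4.03 ± 0.16 without that library (adjusted p = 0.00563), or 16.4-fold.

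The helper cytokines of this group separated the fractions in all libraries. Il4, a cytokine that drives antibody class switching, read 9.67, 9.0 and 8.95 in CD4, against 5.80 in the library labelled CD8 1 and 5.78 and 5.76 in CD8 2 and 3. The CD8 values were level with each other and close to the floor of the scale, and the difference was 3.43 ± 0.21 as labelled (adjusted p = 0.0116). On the deposited value table it was 8.02 ± 0.48 (adjusted p = 0.00134), so the size of this difference depends on the scale. Il21, which promotes germinal centre responses, read 8.0, 7.32 and 7.41 in CD4 and 5.76 to 5.78 in CD8. Its difference was 1.81 in both comparisons, with adjusted p of 0.0568 as labelled and 0.0492 without the library labelled CD8 1. Of 15 T cell cytokine genes tested, Il4 alone rose as labelled and Il4 and Il21 without that library. Ifng read 8.56, 7.70 and 7.83 in CD4, against 10.01 in the library labelled CD8 1 and 7.24 in both CD8 2 and CD8 3, so its difference was -0.13 as labelled and 0.79 ± 0.29 without that library (adjusted p = 0.321), or 0.53 ± 0.05 with the replicate block added (adjusted p = 0.0259). Il17a, at 6.58 to 6.93 in CD4 and 6.63 to 6.87 in CD8, did not pass the test.

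Several other follicular helper genes had large differences. Sostdc1, an inhibitor of BMP and Wnt signals, read 8.87, 9.55 and 9.34 in CD4 and 5.89 to 5.94 in CD8 (difference 3.34 ± 0.18, adjusted p = 0.00826 as labelled). Tbc1d4, a regulator of vesicle traffic, read 9.21, 9.53 and 9.58 in CD4, against 6.61 in the library labelled CD8 1 and 6.25 and 6.29 in CD8 2 and 3 (difference 3.06 ± 0.15, adjusted p = 0.00692). For both genes the library labelled CD8 1 stayed with the other CD8 libraries. Sh2d1a, the SLAM adaptor that T cells need to help B cells, read 12.17, 11.41 and 12.07 in CD4, against 8.03 in the library labelled CD8 1 and 9.56 and 9.38 in CD8 2 and 3, and its difference without that library was 2.41 ± 0.27 (adjusted p = 0.0361). Icos, a costimulatory receptor, had a difference of 1.92 ± 0.30 as labelled and 1.67 ± 0.27 without that library, short of the threshold in both (adjusted p = 0.141 and 0.0747), and passed with the replicate block (0.0448 and 0.00878). Pdcd1, which encodes PD-1, read 6.96, 8.25 and 8.34 in CD4 and 6.27 to 6.39 in CD8. CD4 1 was the low one of the CD4 libraries, and the adjusted p was 0.387 and 0.25, against 0.278 and 0.00766 with the replicate block. Bcl6, the factor that defines follicular helper cells, was close to the floor in both fractions, at 5.78 to 5.90 in CD4 and 5.75 to 5.77 in CD8.

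Several regulatory T cell genes were also higher in CD4. Of 14 tested, 2 rose as labelled, with a median difference of 0.907, and 7 rose without the library labelled CD8 1, with a median of 1.12; within the array series of replicates 2 and 3, 11 rose. The replicate block left 0 of these calls as labelled and gave 11 without the library labelled CD8 1. In the order given, these fits called 0.238%, 1.25%, 9.65%, 0.0122% and 7.02% of all genes higher in CD4. Ctla4, an inhibitory receptor, read 12.61, 11.21 and 11.24 in CD4, against 9.95 in the library labelled CD8 1 and 7.46 and 7.29 in CD8 2 and 3. The difference was 3.45 ± 0.87 as labelled (adjusted p = 0.358) and 4.31 ± 0.51 without that library (adjusted p = 0.0406), the largest positive difference called there. Tnfrsf4, which encodes the costimulatory receptor OX40, read 9.56, 10.01 and 10.03 in CD4 and 6.53 to 6.82 in CD8, with all 3 CD8 libraries low (difference 3.24 ± 0.16, adjusted p = 0.00692). Izumo1r, the folate receptor 4 gene of regulatory and helper cells, read 13.53, 13.44 and 13.39 in CD4, against 7.66 in the library labelled CD8 1 and 10.32 and 10.19 in CD8 2 and 3. Its difference without that library was 3.20 ± 0.07 (adjusted p = 0.00279).

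The high-affinity interleukin 2 receptor chain gene Il2ra read 7.77, 7.89 and 7.66 in CD4, against 6.76 in the library labelled CD8 1 and 6.46 in both CD8 2 and CD8 3. It was 2.32-fold higher in CD4 as labelled (adjusted p = 0.0383). Capg, an actin-capping protein gene, Ebi3, a cytokine subunit gene, and Gpr83, a G protein-coupled receptor gene, rose by 1.68, 1.24 and 1.22 without the library labelled CD8 1. Foxp3, the defining factor of regulatory T cells, read 6.28, 6.54 and 6.42 in CD4 and 6.28 to 6.40 in CD8 on its brighter probe, which overlapped (adjusted p = 1 as labelled and 0.944 without the library labelled CD8 1). A second, dimmer Foxp3 probe averaged 6.14 in CD4 and 5.83 in CD8, a difference of 0.31 that passed the test as labelled (adjusted p = 0.0357). The probes of Foxp3 thus disagreed.

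Tnfsf11 was the leading gene of the helper surface ligands. It encodes RANKL, the cytokine that induces antigen-sampling M cells in the epithelium over Peyer's patches. It read 9.67, 9.99 and 9.96 in CD4, against 6.81 in the library labelled CD8 1 and 6.60 and 6.58 in CD8 2 and 3, without overlap. The gene was 9.25-fold higher in CD4 as labelled (difference 3.21 ± 0.12, adjusted p = 0.00397) and 9.74-fold higher without the library labelled CD8 1 (adjusted p = 0.00437). Of 10 ligand genes tested, Tnfsf11 rose as labelled, and Tnfsf11 and Tnfsf14 rose without that library, by 3.28 and 0.40. With the replicate block added to the second comparison, 6 rose. The shares of all genes that rose in these fits were 0.238%, 1.25% and 7.02%. Cd40lg, the ligand that activates B cells through CD40, was detected in all 3 CD4 libraries and in 0 of the 3 CD8 libraries. It was at least 1.32-fold higher in CD4, with an adjusted p of 0.111 as labelled, 0.0868 without the library labelled CD8 1 and 0.0256 with the replicate block added to the second comparison.

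Several granule genes of cytotoxic cells were lower in CD4. Of 17 tested, 3 fell as labelled (Nkg7, Ctsw and Crtam), with a list median of -0.27, and 5 fell without the library labelled CD8 1, with a median of -0.118. With the replicate block 0 were called as labelled, and 6 fell and 2 rose without that library. Within the array series of replicates 2 and 3, 8 fell and 1 rose. Of all genes, 0.0671% fell as labelled and 1.23% without that library. With the block added there, 5.63% fell and 7.02% rose, and within that array series 7.68% fell and 9.65% rose. Nkg7, a granule membrane protein, read 6.13, 6.67 and 6.66 in CD4, against 9.32 in the library labelled CD8 1 and 10.24 and 10.08 in CD8 2 and 3. All 3 CD8 libraries were high, and the difference was -3.39 ± 0.30 as labelled (adjusted p = 0.0365) and -3.67 ± 0.20 without the library labelled CD8 1 (adjusted p = 0.00931). Ctsw, a cathepsin of cytotoxic cells, read 6.65, 7.39 and 7.39 in CD4, against 9.75 in the library labelled CD8 1 and 9.99 and 9.77 in CD8 2 and 3. Crtam, an adhesion receptor of activated cytotoxic cells, read 5.95 to 6.02 in CD4 and 7.06 to 7.17 in CD8, without overlap and with a narrow spread (difference -1.12 ± 0.04, adjusted p = 0.00397 as labelled).

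The granzymes showed how far the library labelled CD8 1 moves a mean. Gzmb, a serine protease that triggers apoptosis in target cells, read 9.69, 9.48 and 9.51 in CD4, against 14.75 in the library labelled CD8 1 and 11.12 and 11.20 in CD8 2 and 3. CD4 was lower by 6.96-fold as labelled, where the spread left an adjusted p of 0.676, and by 3.03-fold without that library (difference -1.60 ± 0.08, adjusted p = 0.00838). Gzma read 7.49, 7.45 and 7.63 in CD4, against 12.95 in the library labelled CD8 1 and 9.11 and 9.24 in CD8 2 and 3. It fell by 1.65 without that library (adjusted p = 0.00818). Which cells gave the Gzmb signal of the CD4 libraries was not tested; those libraries also read Cd8b1 at 7.80 to 8.26. Prf1, the pore-forming perforin gene, was dim throughout, at 5.81 to 5.94 in CD4 and 6.04 to 6.16 in CD8, and its difference of -0.25 without the library labelled CD8 1 did not pass the test (adjusted p = 0.122).

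The promoters of Tnfsf11, Cd8a and Nkg7 are shown because these genes were called in opposite directions both with and without the library labelled CD8 1, and because RUNX factors act on genes of the CD8 lineage. Each is the 250 bases before the gene's annotated start in RefSeq (GRCm38.p6), read 5′ to 3′ along the gene, and capitals mark the RUNX motif TGTGGT or its reverse complement ACCACA.
Tnfsf11 promoter, chr14:78308044-78308293, minus strand: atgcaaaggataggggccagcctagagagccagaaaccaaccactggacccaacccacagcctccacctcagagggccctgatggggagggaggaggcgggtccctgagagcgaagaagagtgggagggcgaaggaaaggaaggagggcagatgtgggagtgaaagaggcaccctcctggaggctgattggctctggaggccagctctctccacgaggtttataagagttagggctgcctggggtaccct
Cd8a promoter, chr6:71373177-71373426, plus strand: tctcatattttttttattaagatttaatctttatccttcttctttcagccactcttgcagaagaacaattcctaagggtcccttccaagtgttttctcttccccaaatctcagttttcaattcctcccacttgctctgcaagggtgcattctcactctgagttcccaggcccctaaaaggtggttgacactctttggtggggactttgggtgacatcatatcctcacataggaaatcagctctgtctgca
Nkg7 promoter, chr7:43436888-43437137, plus strand: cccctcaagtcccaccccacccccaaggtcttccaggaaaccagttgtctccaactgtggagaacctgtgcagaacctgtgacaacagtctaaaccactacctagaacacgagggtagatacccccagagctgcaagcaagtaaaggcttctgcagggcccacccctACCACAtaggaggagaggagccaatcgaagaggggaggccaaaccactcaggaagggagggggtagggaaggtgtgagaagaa
The motif matched once in the Nkg7 window, 83 bases before the start, and these letters are not in the windows of Tnfsf11 and Cd8a. Over all promoters of this length, 14% held the motif on either strand. It was in 9.42% of 191 promoters of genes higher in CD4 and 12% of 209 promoters of genes lower in CD4 without the library labelled CD8 1, which is a description of these letters only.

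Some members of the natural killer receptor and chemokine lists fell in CD4, and others did not. Klrd1, which encodes CD94 of the CD94 and NKG2 receptors, read 7.31, 7.52 and 7.47 in CD4, against 13.46 in the library labelled CD8 1 and 11.42 and 11.53 in CD8 2 and 3. The difference was -4.70 ± 0.59 as labelled (adjusted p = 0.091) and -4.04 ± 0.08 without that library (adjusted p = 0.00279), and DN and γδ 2 and 3 were as high as the library labelled CD8 1, at 13.2 to 13.7. Of 16 receptor genes tested, Klrd1 and Cd160 fell without that library and 0 passed in the limma test as labelled. There 4 had an unadjusted p under 0.05, as had 1224 of all 16397 genes. The list median was -0.0296 as labelled and -0.000398 without that library, where 8 members lay above 0 and 8 below. Klrb1c went the other way, with a difference of 0.94 as labelled and 1.26 for replicates 2 and 3 alone (limma adjusted p = 9e-04). Klra5, Klre1 and Klra6 read 5.90 to 6.00 in CD4, against 9.92, 9.50 and 8.27 in the library labelled CD8 1 and 5.91 to 6.12 in CD8 2 and 3. In DN they read 10.8 to 11.2, 9.70 to 10.1 and 10.5 to 10.7, and in γδ 2 and 3 8.32 to 8.41, 8.33 to 8.34 and 7.07 to 7.27. Ccl5, a chemokine of effector T cells, read 11.33, 11.24 and 11.38 in CD4, against 15.67 in the library labelled CD8 1 and 12.96 and 12.91 in CD8 2 and 3. It fell by 1.62 without that library (adjusted p = 0.00325), as did Ccl4 by 0.99. Those were the 2 chemokine genes of 7 tested that passed. Xcl1, at 8.23, 6.90 and 6.90 in CD4 and 12.23, 9.23 and 9.26 in CD8, had a difference of -1.90 ± 0.48 without the library labelled CD8 1 that did not pass (adjusted p = 0.175), and of -2.34 ± 0.03 that did once the replicate block was added (adjusted p = 0.00619).

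**Figure D3:**
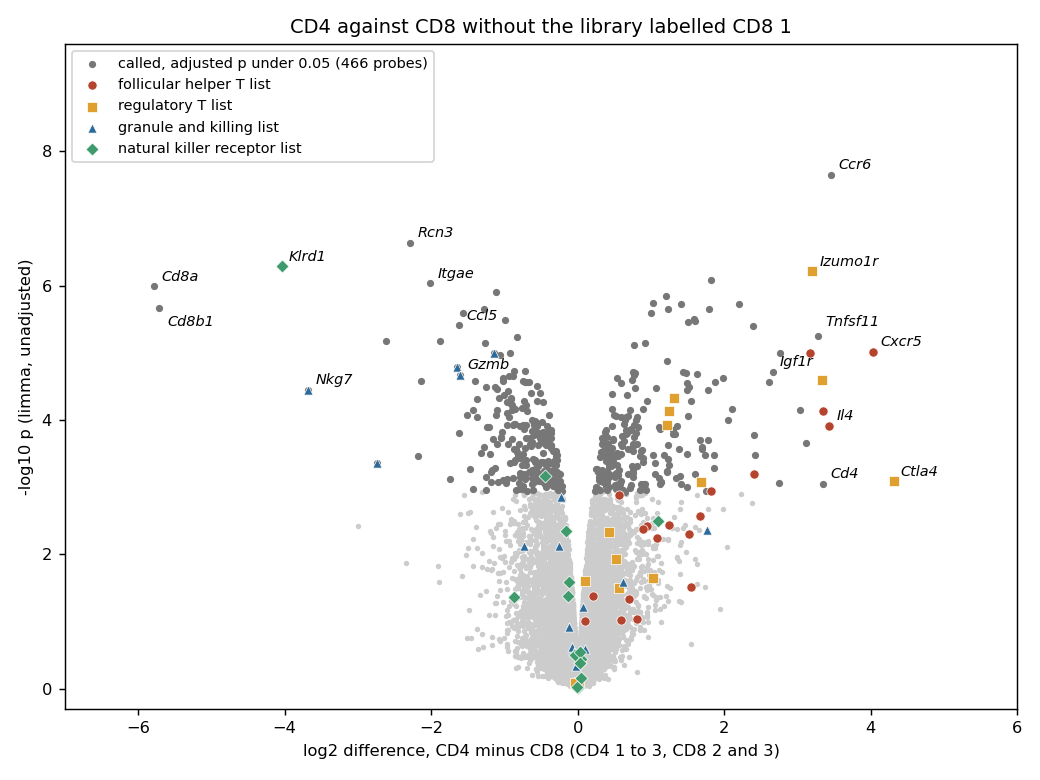
Log2 difference, CD4 minus CD8 (x axis), against the -log10 of the unadjusted limma p (y axis) for 19834 probes without the library labelled CD8 1. Dark points are the 466 probes called, and coloured points are genes of 4 lists: follicular helper and regulatory genes lie mostly to the right, and the called granule and natural killer receptor genes to the left.

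The receptors that place cells in the tissue split between the fractions. Ccr6, the receptor for the chemokine made by the epithelium over Peyer's patches, read 9.79, 9.73 and 9.74 in CD4, against 9.89 in the library labelled CD8 1 and 6.29 and 6.30 in CD8 2 and 3. The library labelled CD8 1 overlapped CD4, as labelled the adjusted p was 0.859, and without that library the gene had the smallest adjusted p of all named genes (difference 3.46 ± 0.03, adjusted p = 0.00044). Ccr2 also rose, by 1.5, and Ccr9, a gut homing receptor, fell by 0.52 without that library. With Cxcr5 these were 3 of 15 receptor genes higher and 1 lower. Itgae, the integrin chain CD103 that binds E-cadherin on epithelium, read 7.51, 7.40 and 7.5 in CD4, against 11.25 in the library labelled CD8 1 and 9.49 and 9.48 in CD8 2 and 3. It fell by 2.01 without that library (SE 0.05, adjusted p = 0.00279), 1 of 10 gut retention genes that passed, while a dimmer second probe had a difference of -0.18 (adjusted p = 0.143).

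The CD3 genes did not pass the test, and Cd28 did without the library labelled CD8 1. Cd3e, Cd3d and Cd3g, the chains of the CD3 complex, had differences of 0.06, 0.32 and -0.26 as labelled, with adjusted p of 1 for each. Cd28, the main costimulatory receptor, read 13.39, 13.04 and 13.05 in CD4, against 8.63 in the library labelled CD8 1 and 10.98 and 11.12 in CD8 2 and 3. It was 4.31-fold higher in CD4 without that library (difference 2.11 ± 0.14, adjusted p = 0.0133). Cd28 and Sh2d1a were the 2 of 22 receptor signalling genes that passed without that library, and 10 rose and 1 fell once the replicate block was added. Igf1r, the receptor for insulin-like growth factor 1, read 9.89, 9.51 and 9.61 in CD4, against 7.08 in the library labelled CD8 1 and 6.98 and 7.04 in CD8 2 and 3 (difference 2.64 ± 0.11, adjusted p = 0.00438 as labelled). Of 25 cytokine and growth factor receptor genes, Igf1r, Il2ra and the decoy receptor gene Il1r2 rose in both comparisons. Il7r, the receptor for the survival cytokine interleukin 7, read 7.54, 7.75 and 7.62 in CD4, against 6.71 in the library labelled CD8 1 and 8.42 and 8.51 in CD8 2 and 3, and fell by 0.83 without that library (adjusted p = 0.024).

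The median difference of 13 genes of naive and recirculating T cells was -0.365 without that library, with Il7r and Dapl1 passing the test, against 0.0443 and none as labelled. Lef1, a factor of naive T cells, read 7.92, 8.24 and 8.33 in CD4, against 6.13 in the library labelled CD8 1 and 8.97 and 9.16 in CD8 2 and 3 (difference -0.90 ± 0.15 without that library, adjusted p = 0.0813, or 0.0164 with the replicate block). Ccr7, a lymph node homing receptor, read 6.55, 7.78 and 7.67 in CD4, against 5.94 in the library labelled CD8 1 and 7.73 and 7.76 in CD8 2 and 3. Both replicate 1 libraries were low for Ccr7, and the fractions overlapped. Tbx21, which encodes T-bet, behaved in the same way, at 8.87, 9.84 and 9.70 in CD4 and 8.89, 9.82 and 9.77 in CD8, with adjusted p of 1 and 0.748. Among 18 effector transcription factor genes, Ahr rose by 1.14 and Hopx fell by 0.81 without the library labelled CD8 1.

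**Figure D4:**
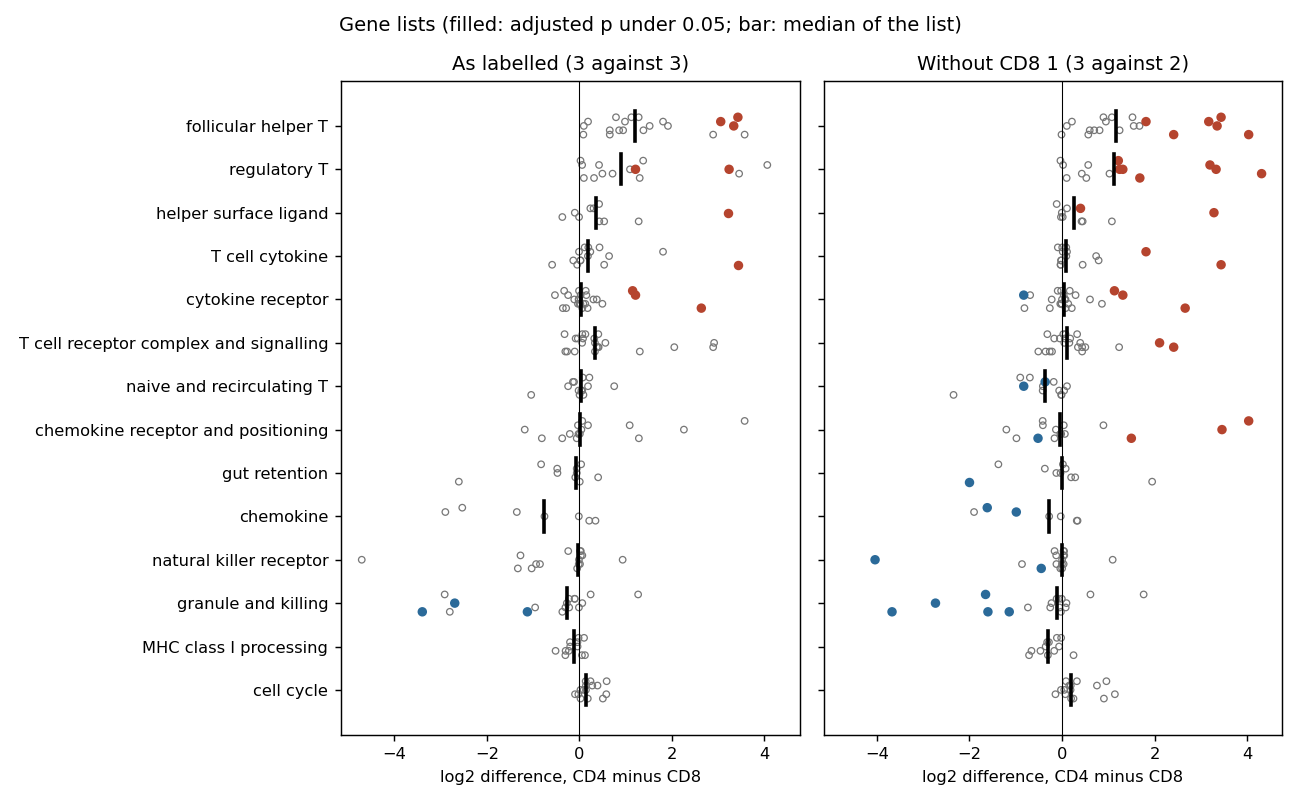
Log2 difference, CD4 minus CD8 (x axis), of the genes of 14 lists (rows), as labelled (left) and without the library labelled CD8 1 (right). Filled points passed the test, red for higher and blue for lower in CD4, and black bars are list medians, which stand at 1.20 and 1.16 for follicular helper genes and at -0.27 and -0.118 for granule genes.

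Few members of the remaining lists passed. As labelled, limma called 0 of the 63 genes of the MHC class I, interferon, cell cycle, immediate early and type 17 lists, of which 8 had an unadjusted p under 0.05. Without the library labelled CD8 1 it called 3, and 23 had an unadjusted p under 0.05. Over all genes tested, 1224 of 16397 had such a p as labelled, and 2719 of 16547 without that library. Without the library labelled CD8 1, Nr4a1, which T cell receptor signals induce, rose by 1.22, and Ccr6 and Ahr were the 2 of 10 type 17 genes called. The MHC class I list had a median of -0.295 there, with 11 of 12 members below 0, 0 called and 3 at an unadjusted p under 0.05. Cd74, the invariant chain of MHC class II, read 7.54, 7.53 and 7.68 in CD4, against 10.81 in the library labelled CD8 1 and 6.88 and 6.77 in CD8 2 and 3. Its difference turned from -0.57 ± 1.18 as labelled to 0.76 ± 0.07 without that library (adjusted p = 0.0212), and Lgmn was the other of 13 MHC class II genes called. The 11 general T cell markers gave 0 calls in both comparisons, with 1 and 2 at an unadjusted p under 0.05. Among markers of other cells, Acta2, an actin of smooth muscle, read 6.45 to 6.54 in CD4 and 5.82 to 5.87 in CD8 (difference 0.66 ± 0.04, adjusted p = 0.00924), and Gzma was the single γδ list gene called, without the library labelled CD8 1.

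The replicate block, applied without the library labelled CD8 1, raised the calls in most of these lists beside the 7.02% and 5.63% of all genes. The block fit there compares CD4 2 and 3 with CD8 2 and 3 and gives CD4 1 no weight. It called 7 of 15 cytokine genes higher, 8 of 16 immediate early genes, 6 of 10 type 17 genes, 5 of 15 cell cycle genes and 5 of 11 T cell markers, all higher in CD4. Among 13 MHC class II genes 5 rose and 1 fell, among 18 effector factors 8 rose and 2 fell, and among 11 inhibitory receptor genes 5 rose and 1 fell. Lower in CD4 were 5 of 13 naive T cell genes, 3 of 16 natural killer receptors with 1 higher, 4 of 7 chemokines with 1 higher, and 2 of 12 MHC class I genes. The coreceptor list had 4 higher and 3 lower, with the sorting markers Cd4 and Cd8b1 included. Counts were 4 and 3 for the chemokine receptors, 4 and 2 for the cytokine receptors, and 1 and 2 for gut retention.

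Genes outside the lists completed the set with the largest differences. Higher in CD4 as labelled were Rnf19a, a ubiquitin ligase gene, by 1.89, Egln3, an oxygen-sensing prolyl hydroxylase gene, by 2.33, Nanos1, an RNA-binding protein gene, by 1.84, Gpr155 by 1.72, and Ext1, a heparan sulphate polymerase gene, by 1.63. A dimmer second Nanos1 probe had a difference of 0.58 and did not pass in limma (adjusted p = 0.125). Ext1 read 8.64 to 8.74 in CD4 and 7.0 to 7.15 in CD8 and had the smallest adjusted p of the named genes as labelled (0.00362). Lower in CD4 were Pim2, a survival kinase gene, at 8.95 to 9.07 in CD4 and 9.99 to 10.06 in CD8 (difference -1.02 ± 0.04, adjusted p = 0.00502), and Ppp3ca, a catalytic chain of calcineurin, by -0.85. Ehd1, Olfr59, Ostf1, Crip1 and Pepd also fell, with differences of -1.18 to -0.47. All of these kept their direction and stayed called without the library labelled CD8 1.

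Without that library the largest further differences were those of Sccpdh (3.03 ± 0.20) and Bcl2a1c (2.76 ± 0.11), of the Bcl2 survival family, which were higher in CD4, and of Tspan9 (-2.61 ± 0.10), Rcn3 (-2.28 ± 0.04), Tm6sf1 (-2.17 ± 0.21), Plac8 (-1.88 ± 0.07) and Epsti1 (-1.62 ± 0.13), which were lower. Their adjusted p ran from 0.00226 for Rcn3 to 0.0255 for Tm6sf1. Rcn3 read 6.81, 6.73 and 6.74 in CD4, against 8.06 in the library labelled CD8 1 and 9.05 and 9.03 in CD8 2 and 3, while its dimmer second probe did not pass (difference -0.08, adjusted p = 0.342). The dimmer second probe of Epsti1 did not pass either (difference -0.22, adjusted p = 0.148), and that of Tspan9 did (difference -0.90, adjusted p = 0.0121). Bcl2a1c in the library labelled CD8 1, at 10.88, overlapped the CD4 libraries, at 10.72 to 11.03, and stood above CD8 2 and 3, at 8.08 and 8.07. Bcl2a1c belongs to a family of near-identical genes, so its probe may read related transcripts.

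**Figure D5:**
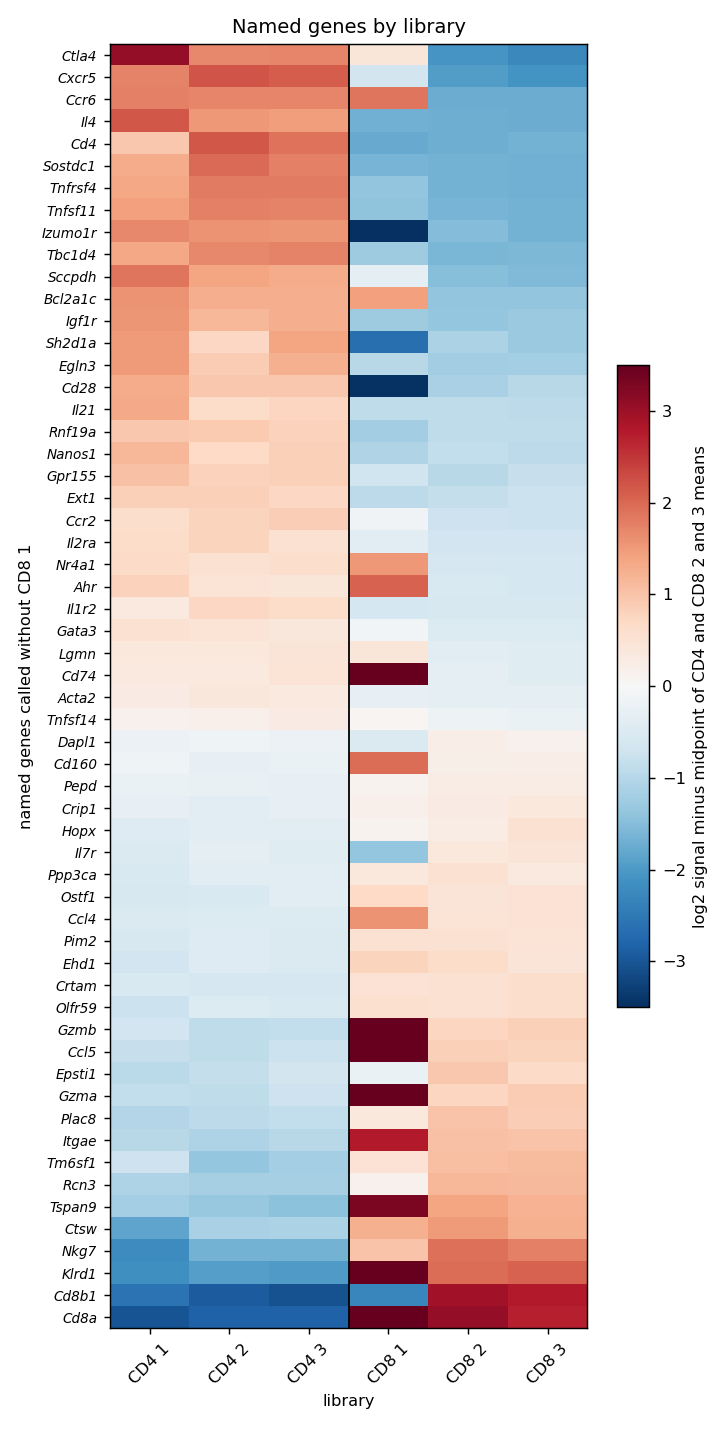
Log2 signal of the 58 named genes called without the library labelled CD8 1 (rows, 31 higher and 27 lower in CD4), in 3 CD4 and 3 CD8 libraries (columns), relative to the midpoint of the CD4 mean and the mean of CD8 2 and 3. Colour runs from blue (lower) to red (higher) and ends at 3.5; the column of the library labelled CD8 1 goes with CD8 2 and 3 for genes such as Nkg7 and Il4 and departs from them for Cd8b1, Ccr6 and Cd74.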

How the data were processed

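RNA was read on Toray 3D-Gene mouse 24k arrays (1 colour, Cy5). Per the file headers, the deposited array files give spot medians of intensity at 635 nm (scans at 3 gains, no normalisation). The deposited value table also holds intensity, on a linear scale with a median of 25 per array; how the authors made it is not given in the sources used here. Groups came from the sample titles.

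Background was modelled on the spot medians by normexp with an offset of 50, which shrinks differences between low signals. The log2 values of all 12 arrays were then quantile normalised, without 25 probes that carry scanner flags. Probes with an entry in the value table for an array were taken as detected there, and a probe was tested if detected on all arrays of either fraction in the comparison. Means were compared with limma 3.58.1 in R 4.3.3 (lmFit, eBayes, two-sided), with Benjamini-Hochberg adjustment over all probes tested and calls at adjusted p under 0.05. The comparison used the 6 arrays as labelled, or 5 arrays without the library labelled CD8 1. The script was tested on simulated data. A probe's gene is that of the platform annotation (20690 probes with a symbol, 2783 without), and the probe of the highest mean stands for a symbol. For folds written as "at least", undetected signals were first raised to the lowest detected signal of their array.

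Deviations from the group means correlated at 0.642, 0.594 and 0.522 for libraries of replicates 1, 2 and 3. CD4 2 correlated with CD8 3 at 0.599 and CD4 3 with CD8 2 at 0.534, each above the value for its own number. The numbers also overlap with the array series, so these values cannot show whether the numbers pair the samples. The replicate block is therefore given as an alternative only.

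Named genes were 29 key genes, the 12 highest and 12 lowest called genes of each comparison without overlap, and up to 3 called members of each of 32 lists, 73 in all. Members, lists and tests were chosen with earlier results of these data known. Alternatives were other normalisations and background settings, the value table, filters, blocks, other sets of arrays and leaving out each library. Figures were drawn with Python 3.11.15 and matplotlib 3.10.9.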

Additional observations from a re-analysis of the deposited data

How the results depend on the processing

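The number of probes called depended on the arrays and blocks more than on the signal processing. As labelled, 55 probes were called, against 37 with median scaling, 51 without normexp, 52 with either filter on dim probes, 63 on the value table and 68 with a trended and robust prior. The counts were 208 with a fit over all 12 arrays, 461 with the array series as a block, 3292 for replicates 2 and 3 alone, and 2 with the replicate block. Leaving out 1 library at a time gave 0 to 466. Without the library labelled CD8 1, 466 probes were called, against 203 with median scaling, 267 on the value table (77.9% of them higher in CD4, against 48.5%), 346 to 458 with the other processing settings and with all arrays but that one, 1017 with all arrays but that one and γδ 1, 2385 with the replicate block and 3293 with a block for the series of arrays. Leaving out 1 further library gave 0 to 3292; at the counts of 0, 1673 and 1972 probes had an unadjusted p under 0.05. Without the library labelled CD8 1, the replicate block and the series block give CD4 1 no weight, so their counts rest on replicates 2 and 3. The share higher in CD4 as labelled was 76.4%, against 54.8% for replicates 2 and 3 alone. None of the 26 named genes called as labelled, or of the 58 called without the library labelled CD8 1, stayed called without CD8 2. Direction turned for Cd74 (0.78 for replicates 2 and 3 alone and -1.27 to 0.76 with 1 library left out, the highest without the library labelled CD8 1, against -0.57) and Ifng (0.53 for replicates 2 and 3 alone, against -0.13). Leaving out a CD8 library after CD8 1 leaves 1 CD8 array, which is assumed to vary like CD4. The causes of these shifts were not tested.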
